A study of Mus musculus with 8 samples.

Results

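Imprinted genes are genes of which mainly the copy from one parent is transcribed. Of the 54232 genes in the count tables, 33 were taken here as a list of known mouse imprinted genes. They were chosen by symbol, with earlier results of these data known. They lie at 17 loci: 22 are known as paternally expressed and 10 as maternally expressed, Gnas has transcripts of both kinds, and 7 of the 33 make noncoding RNA. RNA-seq counts were read in E14, an established line of mouse embryonic stem cells, kept on gelatin without a stated feeder layer in 15% serum with 10 ng/ml LIF, the cytokine that holds such cells undifferentiated. The 4 groups had 2 libraries each. They were cells of knockout lines made by targeting Ssrp1 with Cas9 and a guide RNA, control cells of that experiment, cells given an shRNA against Usp7 from the pSuper puro plasmid, and control cells of that experiment. For the knockdown, 1000 ng of plasmid was transfected, followed after 24 h by 1 ug/ml puromycin for 3 days. The labels call the unedited cells wild type; they do not state how many knockout clones were used, or what the Usp7 controls received. Ssrp1 encodes a subunit of the histone chaperone FACT, and Usp7 encodes a deubiquitinase. The design asks how the transcriptome differs after either perturbation.

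In imprinting, DNA methylation laid down in one germline marks a control region, and after fertilisation the zinc finger proteins Zfp57 and Zfp445, with Trim28, and the maintenance methyltransferase Dnmt1 with Uhrf1 keep that mark on its parental copy. The mark sets which copy of the neighbouring genes is read, often through a noncoding RNA or through binding of Ctcf to the unmethylated copy. Many imprinted genes act on growth of the fetus and placenta, and their marks are known to be lost or gained in cultured embryonic stem cells. The counts carry no allele information, so a level below is the sum over both parental copies, and a change in it does not show which copy changed.

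Across the 2 experiments 6 of the members passed the test described below: Igf2, Phlda2, Ndn, Grb10, Plagl1 and Nnat. Their promoter windows are shown here because these are the members on which the results turn. Each window runs from 250 bases before to 50 bases after an annotated transcription start in RefSeq (GRCm38.p6), 5′ to 3′ on the gene's own strand, and where a gene has several starts the window with the most CpG dinucleotides was taken. The hexamer TGCCGC, the sequence that Zfp57 is known to bind when its CpG is methylated, was searched on both strands, so that it also appears as GCGGCA, and matches are in capitals. The windows lie at chr7:142658755-142659054 (minus strand, 24 CpGs) for Igf2, at chr7:143502475-143502774 (minus, 26 CpGs) for Phlda2, at chr7:62348027-62348326 (plus, 11 CpGs) for Ndn, at chr11:12037371-12037670 (minus, 45 CpGs) for Grb10, at chr10:13090582-13090881 (plus, 26 CpGs) for Plagl1 and at chr2:157559828-157560127 (plus, 17 CpGs) for Nnat.
Igf2: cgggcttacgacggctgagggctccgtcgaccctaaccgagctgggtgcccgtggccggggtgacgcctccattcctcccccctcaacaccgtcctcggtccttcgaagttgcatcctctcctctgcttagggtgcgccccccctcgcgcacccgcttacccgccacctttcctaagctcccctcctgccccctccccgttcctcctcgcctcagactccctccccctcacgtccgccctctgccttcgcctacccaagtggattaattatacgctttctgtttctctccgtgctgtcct
Phlda2: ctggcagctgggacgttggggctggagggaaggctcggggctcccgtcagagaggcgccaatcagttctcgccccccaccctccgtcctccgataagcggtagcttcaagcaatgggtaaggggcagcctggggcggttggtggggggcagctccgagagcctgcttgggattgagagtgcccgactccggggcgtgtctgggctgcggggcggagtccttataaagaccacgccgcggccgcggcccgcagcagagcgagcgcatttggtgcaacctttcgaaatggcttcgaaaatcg
Ndn: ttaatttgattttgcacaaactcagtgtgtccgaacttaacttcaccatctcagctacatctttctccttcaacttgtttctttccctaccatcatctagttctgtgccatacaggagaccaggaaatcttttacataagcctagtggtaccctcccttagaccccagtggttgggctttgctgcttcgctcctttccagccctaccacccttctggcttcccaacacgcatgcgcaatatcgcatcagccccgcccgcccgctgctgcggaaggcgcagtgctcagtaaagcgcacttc
Grb10: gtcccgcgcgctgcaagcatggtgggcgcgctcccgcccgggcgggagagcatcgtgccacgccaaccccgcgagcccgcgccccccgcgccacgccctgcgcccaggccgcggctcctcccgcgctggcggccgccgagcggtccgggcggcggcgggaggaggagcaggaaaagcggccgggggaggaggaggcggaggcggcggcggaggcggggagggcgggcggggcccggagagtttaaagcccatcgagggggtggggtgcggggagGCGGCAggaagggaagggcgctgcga
Plagl1: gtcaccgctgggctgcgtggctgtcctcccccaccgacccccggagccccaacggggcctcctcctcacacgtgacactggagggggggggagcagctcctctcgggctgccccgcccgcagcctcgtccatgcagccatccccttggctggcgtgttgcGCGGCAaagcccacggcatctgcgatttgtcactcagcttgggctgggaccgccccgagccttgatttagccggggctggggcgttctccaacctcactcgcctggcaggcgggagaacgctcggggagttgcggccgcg
Nnat: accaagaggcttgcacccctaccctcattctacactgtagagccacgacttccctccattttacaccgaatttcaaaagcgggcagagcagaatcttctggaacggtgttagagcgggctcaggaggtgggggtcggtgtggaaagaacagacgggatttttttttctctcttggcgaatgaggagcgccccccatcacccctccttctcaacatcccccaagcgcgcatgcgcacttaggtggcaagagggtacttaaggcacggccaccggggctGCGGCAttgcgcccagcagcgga

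The Grb10, Plagl1 and Nnat windows each held 1 match, and the windows shown for Igf2, Phlda2 and Ndn held none in these 300 bases. Igf2 has 4 windows in the table, and another of them, at chr7:142661222-142661521 (14 CpGs), held 1 match. RefSeq windows were found for 26 of the 33 members. Of their 40 windows, 11 (27.5%) held the hexamer, against 3813 of all 32851 promoter windows (11.6%). Windows of a gene can overlap, as those of Mest among the 11 do. Counted by gene, 10 of the 26 members held it, against 3527 of 27025 genes. The member windows also held more CpGs, with a median of 13 against 7 over all windows, and the hexamer contains a CpG. A match is a stretch of letters and was not measured as a binding site here. Cdkn1c, Peg13, Rtl1, Peg10, Impact, H19 and Sgce had no entry in the table of windows.

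Total counts were 15879056 to 18361130 per library. Levels are given as CPM, counts per library scaled to a common total, with TMM factors from a fit of the 8 libraries. The Usp7 transcript stood at 111 and 122 CPM in the knockdown libraries, against 371 and 359 CPM in their controls, and fell 3.13-fold (log2 change -1.64, SE 0.19, edgeR adjusted p = 0.0012), a call that was lost without knockdown replicate 2 (adjusted p = 0.13). The Ssrp1 transcript stood at 412 and 123 CPM in the libraries labelled knockout, against 462 and 479 CPM in the Ssrp1 controls (log2 change -0.77, SE 0.45, edgeR adjusted p = 0.41). Replicate 1 of the libraries labelled knockout therefore had nearly the control level of the targeted transcript, so "labelled knockout" is kept throughout and directions refer to the labels. Replicates differed by more than sampling noise in every group, with a chi-square per gene of 13 to 89.3. The labels do not state whether replicates are separate cultures, and a p-value here reflects the spread between 2 libraries that may be technical.

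In the libraries labelled Ssrp1 knockout, the growth factor gene Igf2 rose and the growth-restraining adaptor gene Grb10 fell. Grb10 was 5.07-fold lower, and Igf2 had 34 counts in the 2 libraries labelled knockout against 1 count in the controls. These were the only 2 of 31 tested members past an adjusted p of 0.05 in edgeR's quasi-likelihood F test (6.45% of the members tested). The background share was 3.71% of the 15757 genes tested, made of 3.39% higher and 0.324% lower. At an unadjusted p under 0.05, 2 members were higher and 6 lower. No share over all genes was taken at that threshold or for calls by DESeq2, here or below, so such counts have no background. The median log2 change was -0.22 over the members and 0.03 over all genes, with 14 members above 0 and 17 below. The 10 maternally expressed members had a median of -0.77, with 7 below 0, and the 20 tested paternally expressed members a median of 0.13, with 9 below 0. Libraries of the 2 groups did not overlap for 16 members, which is 51.6% of those tested against a background of 50.8%. Of these, 3 were higher (background 25.5%) and 13 lower (background 25.3%). Airn and Nap1l5 had too few counts to be tested.

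In the Usp7 knockdown, the transcription factor gene Plagl1 and the necdin gene Ndn rose, and Phlda2, which restrains placental growth, and Nnat, which encodes neuronatin, fell. The changes were 2.72-fold and 2.57-fold upward and 2.23-fold and 2.74-fold downward. These 4 were 12.9% of the 31 members tested, against a background of 2.99% of the 15915 genes tested, made of 2.36% higher and 0.628% lower. At an unadjusted p under 0.05, 5 members were higher and 4 lower. Members had a median log2 change of 0.30, with 22 above 0 and 9 below, and all genes a median of -0.02. The median was 0.37 over the 10 maternally expressed members tested, with 2 below 0, and 0.29 over the 20 paternally expressed members tested, with 6 below 0. The groups did not overlap for 11 members that were higher and 7 that were lower, 58.1% of those tested against a background of 47.6% (24.7% higher, 22.9% lower). None of the 4 kept its call in the joint fit of all 8 libraries, without a filter on low counts, or without knockdown replicate 2. Igf2 and Airn had too few counts to be tested.

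**Figure D1:**
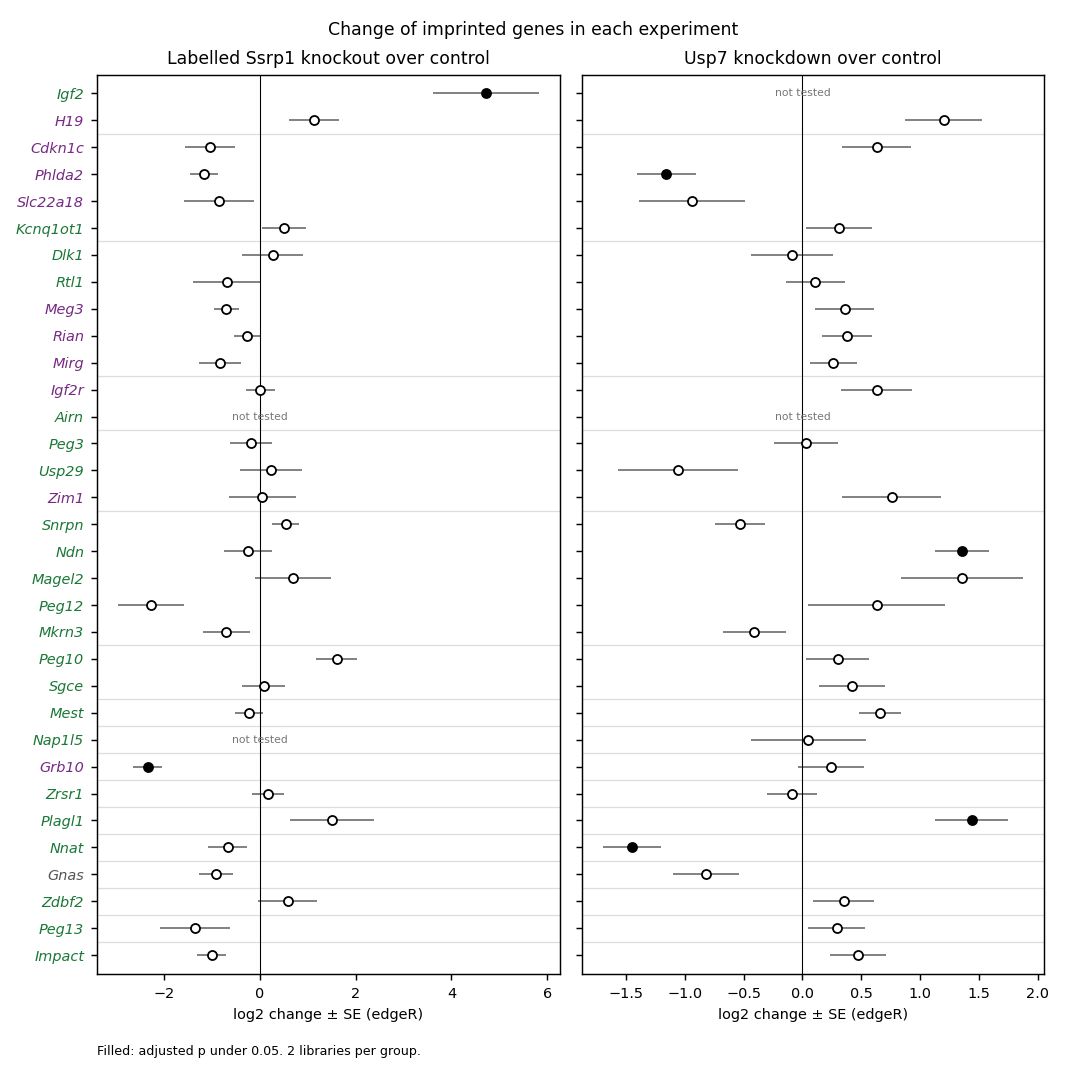
Log2 change ± SE of each member in the libraries labelled Ssrp1 knockout over their controls (left) and in the Usp7 knockdown over its controls (right), 2 libraries per group, with different horizontal scales. Filled points passed an edgeR adjusted p of 0.05: Igf2 at 4.72 and Grb10 at -2.34 on the left, and Plagl1 at 1.44, Ndn at 1.36, Phlda2 at -1.16 and Nnat at -1.45 on the right. Names in green are paternally expressed, in purple maternally expressed and in grey Gnas.

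Igf2, H19, Igf2r and Grb10 belong to the best known growth circuit of imprinted genes. Igf2 (ENSMUSG00000048583, chr7:142650766-142666816, GRCm38) encodes a fetal growth factor, H19 beside it a noncoding RNA read from the other parental copy, Igf2r a receptor that clears the growth factor, and Grb10 an adaptor that dampens insulin and IGF receptor signalling. Igf2 was near the limit of detection. It had 11 and 23 counts (0.745 and 1.30 CPM) in the libraries labelled knockout, against 1 and 0 counts (0.0717 and 0 CPM) in the Ssrp1 controls. The ratio of normalised counts was 32.4, with an exact 95% binomial interval of 5.43 to 1315 that covers counting error only, and the edgeR adjusted p was 0.043. Leaving out control replicate 1 or control replicate 2 ended the call (adjusted p = 0.43 and 0.33), and so did DESeq2 (adjusted p = 0.11), a correction for GC content and length (0.054) and the joint fit of 8 libraries (0.066). Usp7 knockdown libraries had 4 and 33 counts (0.211 and 1.73 CPM), against 2 and 7 counts (0.113 and 0.388 CPM) in their controls, and these groups overlapped. An annotated transcript named Gm49394 covers 62.8% of the Igf2 exon length on the same strand and had 0 counts in every library. How reads of overlapping genes were counted is not given in the sources used here. Whether reads of the shared length were counted for either gene is therefore not known.

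H19 (chr7:142575529-142578143) had 35.5 and 11.4 CPM in the libraries labelled knockout, against 8.60 and 13.3 CPM in the Ssrp1 controls (log2 change 1.14, SE 0.52, adjusted p = 0.27). There, replicate 1 labelled knockout stood above both controls and replicate 2 did not. In the knockdown it had 28.3 and 67.6 CPM, against 21.5 and 20.3 CPM in the Usp7 controls (log2 change 1.20, SE 0.33, adjusted p = 0.088). Both knockdown libraries lay above both controls, but the difference missed the threshold. Igf2r (chr17:12682406-12769664) had 73.5 and 101 CPM in the libraries labelled knockout and 73.5 and 106 CPM in the Ssrp1 controls, a log2 change of 0.01 (SE 0.30, adjusted p = 0.99). It had 191 and 261 CPM in the knockdown and 96.9 and 193 CPM in the Usp7 controls (log2 change 0.63, SE 0.30, adjusted p = 0.32), with 1 knockdown library just below the higher control. Airn, the noncoding RNA that silences Igf2r on the paternal copy and runs antisense to it, had 3 counts at most in any library.

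Grb10 (ENSMUSG00000020176, chr11:11930508-12038683) had 22.2 and 17.1 CPM in the libraries labelled knockout, against 103 and 104 CPM in the Ssrp1 controls. Its mean was 19.7 ± 3.59 CPM in the libraries labelled knockout and 103 ± 0.651 CPM in the controls (SD, n = 2 each), and it fell 5.07-fold (log2 change -2.34, SE 0.30, adjusted p = 0.007). The gap between the groups was many times the spread within either. Leaving out replicate 1 labelled knockout gave a log2 change of -2.60, and leaving out replicate 2 gave -2.17. Each of these fits leaves 1 library labelled knockout, so its spread comes from the controls alone. The call held in each of the 12 alternative fits that were run, with log2 changes of -2.60 to -2.17 and adjusted p-values up to 0.036. The knockdown libraries had 10.2 and 15.8 CPM, against 9.74 and 12.3 CPM in the Usp7 controls (log2 change 0.24, SE 0.28, adjusted p = 0.72), and these overlapped. The Ssrp1 controls thus stood apart from the other 6 libraries, whose Grb10 levels all lay between 9.74 and 22.2 CPM.

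**Figure D2:**
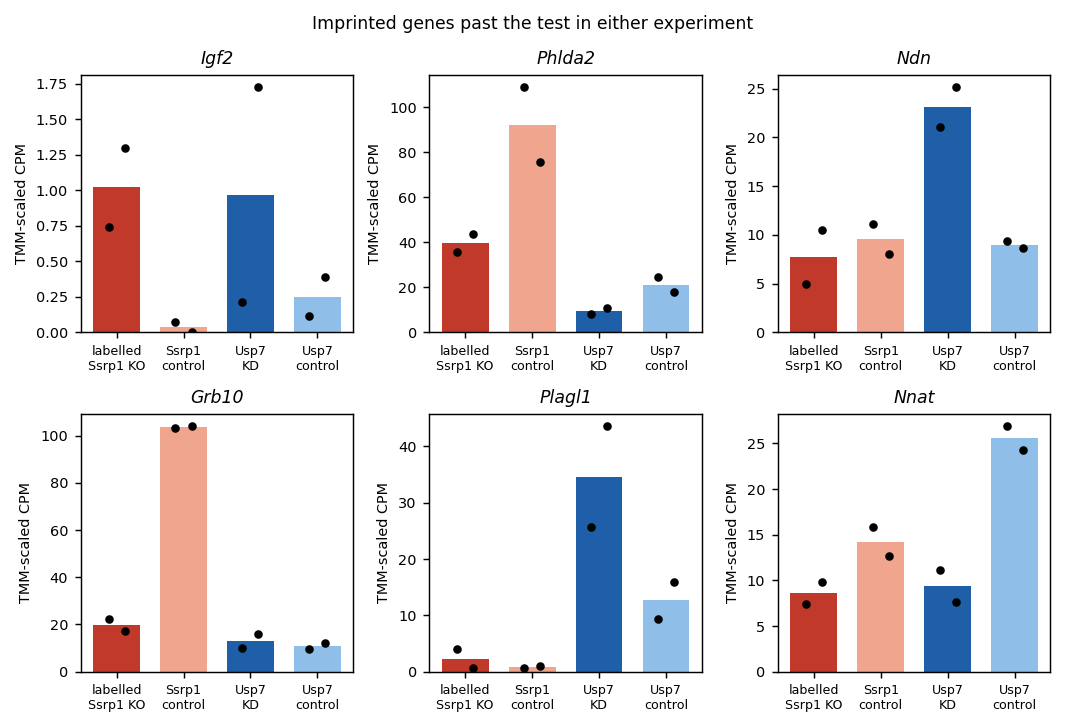
Level of the 6 called members in TMM-scaled CPM (vertical axes, each starting at 0) in the 4 groups. Bars are means and points are the 2 libraries of each group. Grb10 stands at 103 and 104 CPM in the Ssrp1 controls and at no more than 22.2 CPM in the other libraries, while Plagl1 is highest in the Usp7 knockdown and lowest in the Ssrp1 libraries.

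The Kcnq1 domain on distal chromosome 7 holds maternally expressed growth restrainers that the paternal noncoding RNA Kcnq1ot1 silences in cis. Phlda2 (ENSMUSG00000010760, chr7:143501545-143503150), which limits growth of the placenta, had 8.33 and 10.7 CPM in the Usp7 knockdown, against 24.6 and 17.9 CPM in the Usp7 controls, and fell 2.23-fold (log2 change -1.16, SE 0.25, adjusted p = 0.036). It lost the call when Usp7 control replicate 1, knockdown replicate 1 or knockdown replicate 2 was left out, with adjusted p-values up to 0.38 over all alternatives. In the other experiment it had 35.8 and 43.7 CPM in the libraries labelled knockout, against 109 and 75.5 CPM in the Ssrp1 controls. Both were lower than both controls there, and the log2 change of -1.16 (SE 0.29) just missed the threshold (adjusted p = 0.056; 0.012 by DESeq2). Cdkn1c (chr7:143458339-143461050), an inhibitor of cyclin-dependent kinases, had 6.30 and 20.7 CPM in the libraries labelled knockout and 21.8 and 35.5 CPM in the Ssrp1 controls (log2 change -1.04, SE 0.52, adjusted p = 0.32). It had 11.2 and 19.2 CPM in the knockdown and 9.51 and 10.1 CPM in the Usp7 controls (log2 change 0.63, SE 0.29, adjusted p = 0.3). Neither difference passed. Gm44732, antisense to Cdkn1c, covers 30.7% of its exon length, and how shared reads were counted is not known. Slc22a18 (chr7:143473736-143499334), a gene of the transporter family, had 0.881 and 5.25 CPM in the libraries labelled knockout and 6.95 and 4.66 CPM in the Ssrp1 controls, which overlapped. Its knockdown libraries had 1.32 and 2.04 CPM, against 2.26 and 4.15 CPM in the Usp7 controls (log2 change -0.94, SE 0.45, adjusted p = 0.33). Kcnq1ot1 (chr7:143203458-143296549) itself had 24.1 and 10.0 CPM in the libraries labelled knockout and 11.7 and 13 CPM in the Ssrp1 controls, with 17.6 and 20.8 CPM in the knockdown and 11.2 and 19.7 CPM in the Usp7 controls, and the groups overlapped in both experiments.

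Of the 5 paternally expressed members of the Snrpn domain on central chromosome 7, Ndn passed the test in the Usp7 experiment, and the other 4 passed in neither experiment. Ndn (ENSMUSG00000033585, chr7:62346569-62350262) encodes necdin, a growth-suppressing protein of neurons. It had 21.1 and 25.2 CPM in the knockdown, against 9.34 and 8.69 CPM in the Usp7 controls, and rose 2.57-fold (log2 change 1.36, SE 0.23, adjusted p = 0.011). Its levels in the Ssrp1 experiment overlapped, at 4.95 and 10.5 CPM in the libraries labelled knockout and 11.1 and 8.07 CPM in the Ssrp1 controls. Magel2 (chr7:62377010-62381640), next to Ndn and of the same MAGE family, had 1.69 and 4.08 CPM in the knockdown, against 1.42 and 0.831 CPM in the Usp7 controls. Its log2 change equalled that of Ndn at 1.36, but with an SE of 0.52 and an adjusted p of 0.22. It had 0.474 and 1.92 CPM in the libraries labelled knockout and 0.573 and 0.943 CPM in the Ssrp1 controls, which overlapped. Snrpn (chr7:59982495-60140219), a protein of the splicing machinery, stood on the other side of 0 in the knockdown, with 64.2 and 55.9 CPM against 104 and 70.6 CPM in the Usp7 controls (log2 change -0.53, SE 0.21, adjusted p = 0.24). In the Ssrp1 experiment it had 59.1 and 77.8 CPM in the libraries labelled knockout and 54.6 and 43.3 CPM in the controls (log2 change 0.54, SE 0.29, adjusted p = 0.37). Neither difference passed the test. On the same strand, Gm38393 covers 27.3% of the Snrpn exon length and Snurf 10%, and how shared reads were counted is not known. Mkrn3 (chr7:62417593-62420139), a RING-finger ubiquitin ligase gene, had 4.47 and 4.91 CPM in the libraries labelled knockout and 6.88 and 8.90 CPM in the Ssrp1 controls, then 8.02 and 8.52 CPM in the knockdown and 8.94 and 13 CPM in the Usp7 controls. It was lower than both controls in each, without passing (adjusted p = 0.50 in both). Peg12 (chr7:62461871-62464510), a Frat-family gene of Wnt signalling, had 0.339 and 0.508 CPM in the libraries labelled knockout, against 1.93 and 2.36 CPM in the Ssrp1 controls (log2 change -2.27, SE 0.69, adjusted p = 0.1). In the knockdown it had 1.11 and 0.627 CPM, against 0.509 and 0.609 CPM in the Usp7 controls (adjusted p = 0.64).

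Plagl1 (ENSMUSG00000019817, chr10:13060504-13131694) encodes a zinc finger transcription factor known to act on other imprinted genes in mice. It had 25.6 and 43.6 CPM in the knockdown, against 9.40 and 15.9 CPM in the Usp7 controls, and rose 2.72-fold (log2 change 1.44, SE 0.31, adjusted p = 0.035). The call was lost without Usp7 control replicate 1 and without knockdown replicate 2, with log2 changes of 1.01 to 1.88 over all alternatives. In the Ssrp1 experiment the gene was far lower, at 4.0 and 0.620 CPM in the libraries labelled knockout and 0.573 and 1.06 CPM in the controls. Replicate 1 labelled knockout stood above the other 3 libraries there, and the log2 change of 1.51 (SE 0.87, adjusted p = 0.40) was -0.42 without it. Nnat (ENSMUSG00000067786, chr2:157560078-157562522), neuronatin, a small membrane protein of the endoplasmic reticulum, had 11.1 and 7.58 CPM in the knockdown, against 26.9 and 24.3 CPM in the Usp7 controls. It fell 2.74-fold (log2 change -1.45, SE 0.25, adjusted p = 0.012). In the Ssrp1 experiment it had 7.45 and 9.81 CPM in the libraries labelled knockout and 15.8 and 12.7 CPM in the controls (log2 change -0.67, SE 0.41, adjusted p = 0.44), lower in both libraries without passing. Nnat lies within Blcap, which did not pass in either experiment (adjusted p = 0.90 for the Ssrp1 experiment and 0.45 for the Usp7 experiment). Gnas (chr2:174284320-174346744), the stimulatory G protein alpha subunit, had 10.8 and 11.4 CPM in the libraries labelled knockout, against 21.4 and 21.7 CPM in the Ssrp1 controls (log2 change -0.91, SE 0.36, adjusted p = 0.21). It had 6.33 and 10.3 CPM in the knockdown, against 14.6 and 14.7 CPM in the Usp7 controls (log2 change -0.82, SE 0.28, adjusted p = 0.16). It was thus below both controls in each experiment, and neither difference passed the test. Antisense to Gnas, Gm20721 covers 13.1% of its exon length and Nespas 8.83%. How reads of overlapping genes were counted is not given in the sources used here.

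Peg10 and Sgce share a promoter region on proximal chromosome 6. Peg10 (chr6:4747306-4760517), a retrotransposon-derived gene needed in the placenta, had 607 and 244 CPM in the libraries labelled knockout, against 105 and 182 CPM in the Ssrp1 controls. Both stood above both controls, and the log2 change of 1.61 (SE 0.43) missed the threshold (adjusted p = 0.068). It was 0.76 without replicate 1 labelled knockout and 2.12 without replicate 2, with 1 library left in that group. In the knockdown Peg10 had 339 and 588 CPM, against 326 and 427 CPM in the Usp7 controls (log2 change 0.30, SE 0.27, adjusted p = 0.63). Sgce (chr6:4674350-4747207), which encodes epsilon-sarcoglycan, had 7.32 and 9.19 CPM in the libraries labelled knockout and 8.53 and 7.72 CPM in the Ssrp1 controls, with 8.07 and 7.53 CPM in the knockdown and 6.40 and 5.26 CPM in the Usp7 controls, and did not pass in either (adjusted p = 0.95 for the Ssrp1 experiment and 0.49 for the Usp7 experiment). Mest (chr6:30723547-30748465), a hydrolase-fold protein of mesoderm, had 282 and 289 CPM in the knockdown, against 177 and 184 CPM in the Usp7 controls (log2 change 0.66, SE 0.18, adjusted p = 0.091). Replicates agreed closely and did not overlap, yet the adjusted p missed the threshold. It had 37.1 and 32.3 CPM in the libraries labelled knockout and 41.1 and 42.7 CPM in the Ssrp1 controls (log2 change -0.22, SE 0.29, adjusted p = 0.75). Copg2 lies antisense to Mest and covers 23.1% of its exon length, and the strand setting of the counting is not given in the sources used here, so some reads of the pair cannot be told apart. Copg2 did not pass in either experiment (adjusted p = 0.11 for the Ssrp1 experiment and 0.92 for the Usp7 experiment).

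The Dlk1-Dio3 domain on chromosome 12 holds maternally expressed noncoding RNAs (Meg3, Rian, which hosts small nucleolar RNAs, and Mirg, which hosts microRNAs) and the paternally expressed Dlk1, a Notch-like membrane protein, and Rtl1, a retrotransposon-derived placental gene. Loss of Meg3-domain expression is a known variation between mouse pluripotent lines. Meg3 (chr12:109541001-109571726) had 67.7 and 75.1 CPM in the libraries labelled knockout, against 121 and 120.4 CPM in the Ssrp1 controls (log2 change -0.70, SE 0.26, adjusted p = 0.17). In the knockdown it had 501 and 693 CPM, against 375 and 552 CPM in the Usp7 controls (log2 change 0.36, SE 0.25, adjusted p = 0.52). Rian (chr12:109603940-109661716) had 106 and 104 CPM in the libraries labelled knockout and 117 and 145 CPM in the Ssrp1 controls, with 576 and 639 CPM in the knockdown and 413 and 522 CPM in the Usp7 controls. Mirg (chr12:109729764-109749460) had 8.06 and 6.71 CPM in the libraries labelled knockout and 16.3 and 11.0 CPM in the Ssrp1 controls, with 77.1 and 106 CPM in the knockdown and 79.5 and 72.7 CPM in the Usp7 controls. All 3 noncoding RNAs lay below both controls in the libraries labelled knockout, and none passed the test in either experiment. Dlk1 (chr12:109452823-109463336) had 1.42 and 2.93 CPM in the libraries labelled knockout and 1.79 and 1.94 CPM in the Ssrp1 controls, then 4.69 and 9.78 CPM in the knockdown and 8.38 and 7.09 CPM in the Usp7 controls. Rtl1 (chr12:109589193-109600330) had 2.85 and 0.790 CPM in the libraries labelled knockout and 3.22 and 2.83 CPM in the Ssrp1 controls, then 11.0 and 14.5 CPM in the knockdown and 11.5 and 12.1 CPM in the Usp7 controls. Neither gene separated the groups within an experiment, and all 5 genes of the domain were higher in every Usp7 library than in any Ssrp1 library.

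The remaining loci held no call within an experiment. Peg3 (chr7:6703892-6730431), a zinc finger gene of growth and maternal behaviour, had 15.8 and 29.0 CPM in the libraries labelled knockout and 17.1 and 35.3 CPM in the Ssrp1 controls, with 71.5 and 67.4 CPM in the knockdown and 46.7 and 88.8 CPM in the Usp7 controls. Its neighbours Usp29, a ubiquitin protease gene, and Zim1, a zinc finger gene, stayed between 0.633 and 5.44 CPM in all libraries. Zrsr1 (chr11:22972005-22976496), a splicing factor retrogene, had 23.7 and 18.4 CPM in the libraries labelled knockout and 20.7 and 18 CPM in the Ssrp1 controls, with 25.6 and 27.3 CPM in the knockdown and 31.9 and 24.4 CPM in the Usp7 controls. These groups overlapped in both experiments. Impact, a regulator of translation that restrains the kinase Gcn2, had 86.3 and 52.8 CPM in the libraries labelled knockout, against 136 and 152 CPM in the Ssrp1 controls (log2 change -1.0, SE 0.30, adjusted p = 0.098). It had 188 and 291 CPM in the knockdown, against 154 and 192 CPM in the Usp7 controls (log2 change 0.47, SE 0.24, adjusted p = 0.35). Peg13 (chr15:72805600-72810324), a noncoding RNA within Trappc9, had 0.474 and 1.69 CPM in the libraries labelled knockout and 3.73 and 2.12 CPM in the Ssrp1 controls (log2 change -1.35, SE 0.73, adjusted p = 0.37), with 12.7 and 12.4 CPM in the knockdown and 11.2 and 9.41 CPM in the Usp7 controls. Nap1l5, a nucleosome assembly gene within Herc3, stayed between 0.136 and 1.27 CPM.

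Zdbf2 (chr1:63273265-63314576) is a paternally expressed zinc finger gene whose imprint is set up in the early embryo. Its direction in the Ssrp1 experiment depended on which library labelled knockout was kept. It had 95.1 and 14.4 CPM in the libraries labelled knockout, against 34.8 and 40.7 CPM in the Ssrp1 controls. Its 2 libraries labelled knockout lay on opposite sides of the controls, and the log2 change was 0.58 (SE 0.62, adjusted p = 0.68). It was -1.40 without replicate 1 labelled knockout and 1.37 without replicate 2. In the knockdown it had 153 and 181 CPM, against 93.0 and 168 CPM in the Usp7 controls (log2 change 0.35, SE 0.26, adjusted p = 0.54).

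Whether a member changed differently in the 2 experiments was tested by subtracting the knockdown change from the change in the libraries labelled knockout, in a joint fit of the 8 libraries. Grb10 was the 1 of 32 tested members past the threshold, with a difference of -2.63 on the log2 scale (SE 0.39, edgeR adjusted p = 0.014), against a background of 1.00% of the 17052 genes tested (0.610% higher, 0.393% lower). The call was lost without Ssrp1 control replicate 1, Usp7 control replicate 1 or knockdown replicate 2, with adjusted p-values up to 0.16. No member was called higher by edgeR or DESeq2, and DESeq2 called 3 lower. At an unadjusted p under 0.05, 1 member was higher and 10 were lower. The share over all genes beside these DESeq2 and unadjusted counts was not taken, so they have no background here. Of the other members called in 1 experiment, Ndn had a difference of -1.67 (SE 0.52, adjusted p = 0.16), Nnat of 0.73 (SE 0.43, adjusted p = 0.47) and Igf2 of 2.78 (SE 1.9, adjusted p = 0.54). Plagl1 had a difference of -0.01 and did not pass. Its SE is left out, since it is taken from the fold change and F, which were both near 0. Phlda2 had a difference of -0.06 (SE 0.39, adjusted p = 0.97), and its separate changes were both -1.16. These members are therefore not shown to differ between the experiments.

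More members passed a test between the control groups of the 2 experiments than within either experiment. The fits were unlike, with 8 libraries for the control groups and 4 for the counts within an experiment. This comparison of the Usp7 controls with the Ssrp1 controls was added after these levels had been seen. Both are control E14 cells, and clone, culture, plasmid treatment and library batch cannot be told apart between them. Of 32 tested members, 8 were higher and 2 lower in the Usp7 controls (edgeR on the joint fit, adjusted p under 0.05), which is 31.2% of them against a background of 7.98% of 17052 genes (3.92% higher, 4.06% lower). The median log2 difference was 0.84 over the members and 0.04 over all genes. The 2 control groups did not overlap for 26 members, 19 higher and 7 lower, or 81.2% against a background of 56.8% (29.6% higher, 27.2% lower).

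All 5 genes of the Dlk1-Dio3 domain were among the 8 that were higher in the Usp7 controls. Mirg was 5.58-fold higher (log2 difference 2.48, SE 0.27, adjusted p = 0.0011), Meg3 3.85-fold (log2 difference 1.94, SE 0.26, adjusted p = 0.0024) and Rian 3.56-fold (log2 difference 1.83, SE 0.23, adjusted p = 0.0018). Rian lost its call with the GC and length correction, where the log2 difference was 0.69 (adjusted p = 0.10). Dlk1 was 4.12-fold higher (log2 difference 2.04, SE 0.50, adjusted p = 0.033) and Rtl1 3.9-fold (log2 difference 1.96, SE 0.49, adjusted p = 0.035), and these calls held in 9 and 7 of the 14 alternatives. The call of Dlk1 was lost without any 1 of the 4 control libraries and without knockdown replicate 2, and that of Rtl1 was lost in these settings, without knockdown replicate 1 and when GC content and length were corrected for. Together Meg3, Rian and Mirg had 867 and 1147 CPM in the Usp7 controls, against 254 and 277 CPM in the Ssrp1 controls, or 41.5% and 42.5% against 23.6% and 22.7% of the summed level of the 33 members. The summed level of the paternal pair Dlk1 and Rtl1 was 19.9 and 19.2 CPM in the Usp7 controls, against 5.02 and 4.77 CPM in the Ssrp1 controls. Genes known as read from opposite parental copies of this domain were higher together, but no allele was measured. MicroRNA genes antisense to Rtl1 overlap its exons, of which Mir433 covers 1.95% of the exon length. The strand setting of the counting is not given, so reads of Rtl1 and of transcripts antisense to it cannot be told apart.

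The other 3 genes higher in the Usp7 controls were Plagl1, Mest and Peg13. Plagl1 was 15.2-fold higher (log2 difference 3.92, SE 0.72, adjusted p = 0.012), at 9.40 and 15.9 CPM in the Usp7 controls against 0.573 and 1.06 CPM in the Ssrp1 controls. That call was lost without Ssrp1 control replicate 1 and without Usp7 control replicate 2 (adjusted p up to 0.14, log2 differences of 3.47 to 4.44 over the alternatives). Mest was 4.31-fold higher (log2 difference 2.11, SE 0.20, adjusted p = 0.00062), at 177 and 184 CPM in the Usp7 controls against 41.1 and 42.7 CPM in the Ssrp1 controls. Peg13 was 3.53-fold higher (log2 difference 1.82, SE 0.49, adjusted p = 0.046) and kept the call in 8 of 14 alternatives, losing it without any 1 of the 4 control libraries or either knockdown library. Grb10 and Phlda2 were the 2 that were lower, 9.35-fold (log2 difference -3.23, SE 0.29, adjusted p = 0.00061) and 4.35-fold (log2 difference -2.12, SE 0.28, adjusted p = 0.0023). The calls of Grb10, Phlda2, Meg3, Mirg and Mest held in each of the 14 alternatives. Beside these differences, 6 of 9 tested 2-cell-like markers and 2 of 12 stem cell markers (Dppa5a and Nanog) were lower in the Usp7 controls and 1 of 7 tested fibroblast markers (Col1a1) was higher, and their part in the differences was not tested. These control groups are also the baselines of the changes given above, so the comparisons are not independent of each other.

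**Figure D3:**
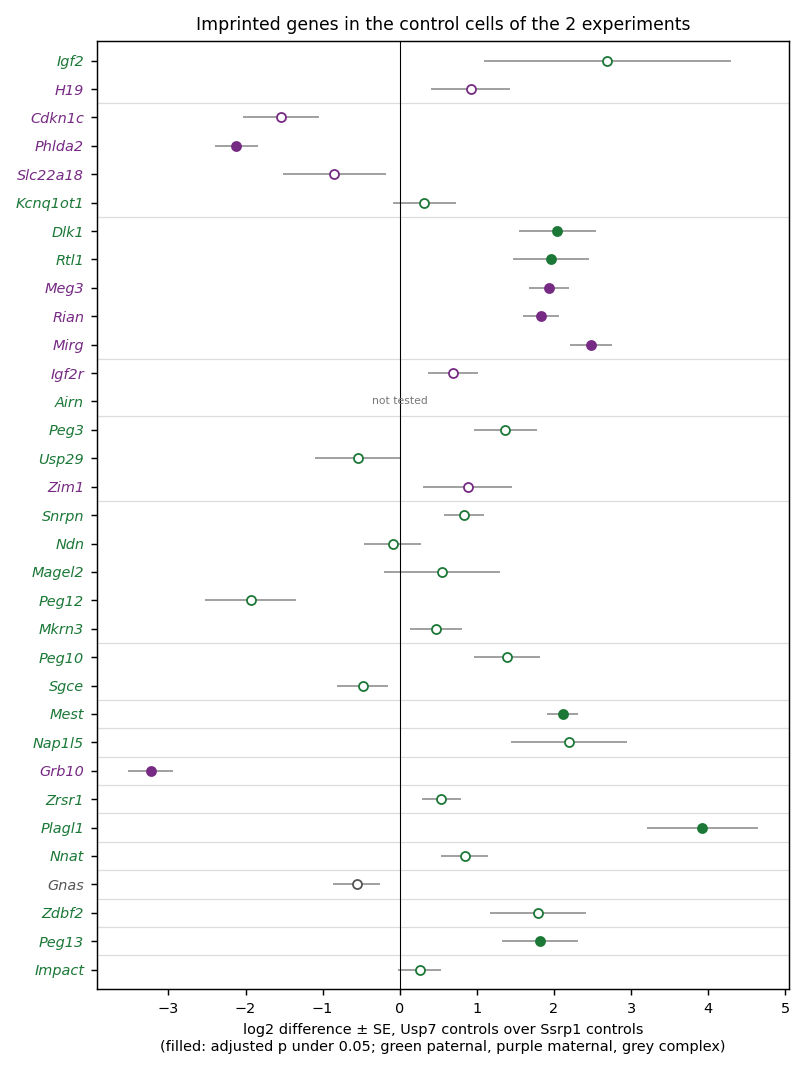
Log2 difference ± SE of each member, Usp7 controls over Ssrp1 controls (2 libraries each), from the joint edgeR fit. Filled points passed an adjusted p of 0.05, and the 5 genes of the Dlk1-Dio3 domain lie together between 1.83 and 2.48, while Grb10 at -3.23 and Phlda2 at -2.12 lie below 0.

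**Figure D4:**
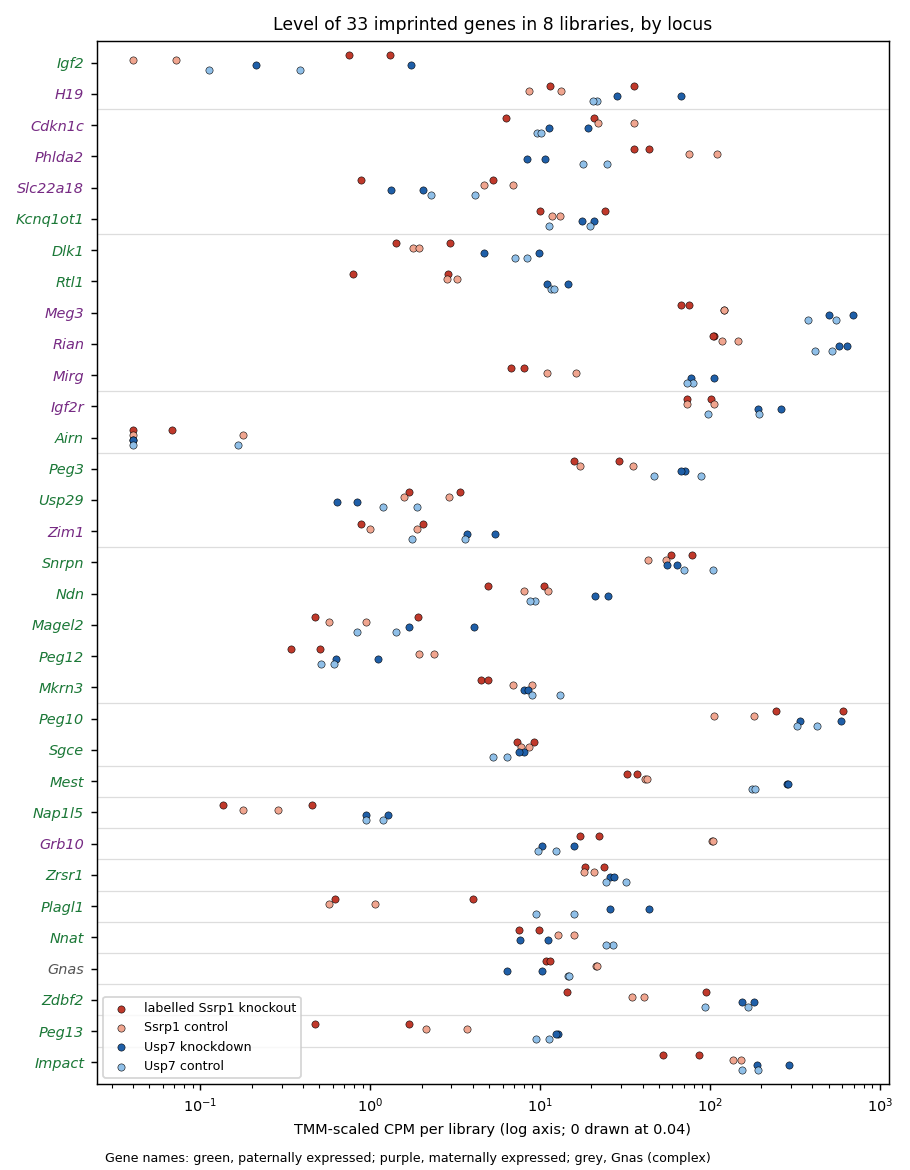
Level of the 33 members in TMM-scaled CPM on a log axis, with a point for each library and a horizontal line between loci; a level of 0 is drawn at 0.04. Members span from at most 0.177 CPM for Airn to 693 CPM for Meg3 in knockdown replicate 2, and the Dlk1-Dio3 genes, Mest and Plagl1 form separate clusters by experiment.

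Compared per kilobase of exon, the leading members changed with the group. In the libraries labelled knockout the highest levels were those of Peg10 (63.8 CPM per kb), Phlda2 (35.5) and Snrpn (31.7), and in the Ssrp1 controls those of Phlda2 (82.5), Impact (28.1) and Snrpn (22.7). The knockdown was led by Mest (72.3 CPM per kb), Peg10 (69.5) and Impact (46.7), and the Usp7 controls by Peg10 (56.5), Mest (45.8) and Snrpn (40.4). Peg10 led the libraries labelled knockout through replicate 1, at 91.1 CPM per kb. In replicate 2 it had 36.6 CPM per kb, beside 38.9 for Phlda2 and 36.0 for Snrpn, and the ranges of Phlda2 overlapped those of both other genes. In the knockdown the values of Mest (71.4 and 73.2) lay within those of Peg10 (50.9 and 88.2), which overlapped those of Impact, and in the Usp7 controls those of Mest (45.0 and 46.6) lay within those of Snrpn (48.1 and 32.7). The order of these neighbours is therefore within their spread. The summed level of the 22 paternally expressed members was 985 and 527 CPM in the libraries labelled knockout, against 477 and 579 CPM in the Ssrp1 controls, with Peg10 alone giving 607 CPM of the first value. The 10 maternally expressed members summed to 357 and 388 CPM in the libraries labelled knockout, against 578 and 617 CPM in the Ssrp1 controls. Much of that gap lay in the means of Grb10 (19.7 against 103 CPM), Phlda2 (39.8 against 92.5) and Meg3 (71.4 against 120.5). Igf2r was nearly level (87.3 against 89.7 CPM) and H19 higher (23.5 against 11.0), and 3 of the 10 had a log2 change above 0. Usp7 libraries had higher sums, with 1248 and 1657 CPM paternal and 1408 and 1820 CPM maternal in the knockdown, against 1041 and 1274 CPM paternal and 1033 and 1409 CPM maternal in the controls.

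Genes that place or keep imprints were read as a list of 32, all of them tested. Zfp57, which reads the methylated hexamer, had 634 and 632 CPM in the libraries labelled knockout and 569.8 and 432 CPM in the Ssrp1 controls, with 598 and 648 CPM in the knockdown and 797 and 619.8 CPM in the Usp7 controls. Zfp57, Zfp445, Trim28, Dnmt1, Uhrf1, Ctcf and the methylation-protecting Dppa3 did not pass in either experiment. Their adjusted p-values were 0.059 (Dppa3, log2 change 1.62) to 0.93 in the Ssrp1 experiment and 0.38 to 0.98 in the Usp7 experiment. Over all genes tested, 3.71% were called in the Ssrp1 experiment. In the libraries labelled knockout 2 of the 32 rose, the chromatin remodellers Hells (log2 change 1.99, SE 0.39, adjusted p = 0.023) and Atrx (1.72, SE 0.40, adjusted p = 0.041). Hells had 510.4 and 222 CPM there, against 81.5 and 109 CPM in the Ssrp1 controls. Both calls were lost on correcting for GC content and length and on leaving out Ssrp1 control replicate 1, and that of Atrx also on leaving out replicate 1 labelled knockout. Over the alternatives Hells had log2 changes of 0.78 to 2.46 (adjusted p up to 0.21) and Atrx of 0.70 to 2.20 (adjusted p up to 0.37). In the knockdown 1 of the 32 rose, Ctcfl, the germline relative of Ctcf, with 10.3 and 10.9 CPM against 0.566 and 0.941 CPM in the Usp7 controls (13.9-fold, log2 change 3.80, SE 0.37, adjusted p = 0.0005). That call held in each of 12 alternatives. With 1 of 32 called, the list was near the 2.99% called over all genes there. The list's median log2 change was 0.21 in the libraries labelled knockout and -0.09 in the knockdown, beside medians of 0.03 and -0.02 over all genes. Between the control groups 7.98% of all genes tested were called. Zfp445 (1.65, adjusted p = 0.020), Hells (1.67, adjusted p = 0.019) and Atrx (1.58, adjusted p = 0.030) were higher in the Usp7 controls, and Dppa3 (-2.85, adjusted p = 0.017) and Cbx3 (-1.01, adjusted p = 0.023) lower. None of these 5 calls held without Ssrp1 control replicate 1 or without Usp7 control replicate 2. Those of Zfp445, Hells and Cbx3 were also lost without Usp7 control replicate 1, those of Hells and Atrx with the GC and length correction, and those of Atrx and Cbx3 without either knockdown library. Atrx kept its call in 9 of 14 alternatives, with a log2 difference as low as 0.43, and Hells in 10, with one as low as 0.75.

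A further 50 genes of the same loci or known as imprinted elsewhere were read as neighbours. In the libraries labelled knockout 1 of 37 tested rose, no more than the 3.71% called over all genes: Ube3a, the ubiquitin ligase gene beside Snrpn that is maternally expressed in neurons. It had 70.1 and 31.0 CPM, against 7.88 and 10.8 CPM in the Ssrp1 controls (5.57-fold, log2 change 2.48, SE 0.43, adjusted p = 0.016). Correcting for GC content and length, or leaving out Ssrp1 control replicate 1, ended the call (adjusted p up to 0.17). In the knockdown none of 37 tested neighbours was called by edgeR (2.99% over all genes), and 1 was called lower by DESeq2. At an unadjusted p under 0.05, 5 were higher and 3 lower. Ube3a was higher in the Usp7 controls than in the Ssrp1 controls as well (log2 difference 2.35, adjusted p = 0.0066), while Commd1 (-1.75, adjusted p = 0.0084) and Zfp264 (-1.94, adjusted p = 0.037) were lower. These were 3 of 38 tested, near the 7.98% called over all genes. All 3 calls were lost without Ssrp1 control replicate 1 and without Usp7 control replicate 2, and Ube3a had a log2 difference of 0.85 to 2.60 over the alternatives. That of Zfp264 was also lost without either of the other control libraries and on correcting for GC content and length. Commd1 covers 9.17% of the exon length of Zrsr1.

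Markers of other cell types were measured beside these changes, since in bulk RNA fewer cells of a type and less RNA per cell cannot be told apart. Over all genes tested, 3.71% were called in the Ssrp1 experiment and 2.99% in the Usp7 experiment. Of 9 tested 2-cell-like markers, genes of the early embryo that few cells of such cultures express, 7 rose in the libraries labelled knockout, with a summed level of 788 and 1459 CPM against 230 and 350 CPM in the Ssrp1 controls. In the Usp7 experiment 5 of 6 rose. DESeq2 called 5 of these markers higher in the libraries labelled knockout and 4 in the knockdown. The sum of all 10 there was 215 and 199 CPM in the knockdown and 216 and 204 CPM in the controls, of which Eif1a, a gene that most cells express, gave 187 and 176 CPM in the knockdown and 212 and 199.8 CPM in the controls. Without Eif1a, left out after its values were seen, the other 9 summed to 28.1 and 23.1 CPM in the knockdown, against 4.30 and 4.32 CPM in the Usp7 controls, and to 446 and 1232 CPM in the libraries labelled knockout, against 54.9 and 148 CPM in the Ssrp1 controls. Primitive endoderm markers summed to 211 and 264 CPM in the libraries labelled knockout, against 136 and 172 CPM in the Ssrp1 controls, with 1 of 11 called (Dab2). At an unadjusted p under 0.05, 7 of the 11 were higher and none lower, DESeq2 called 5 higher, and their median log2 change was 1.54 beside 0.03 over all genes. The unadjusted and DESeq2 counts of these marker lists have no share over all genes beside them. Trophoblast markers summed to 113 and 170 CPM in the libraries labelled knockout, against 88.6 and 87.3 CPM in the Ssrp1 controls, with 2 of 9 called (Esx1 and Gata3), 4 higher at an unadjusted p under 0.05 and a median log2 change of 1.15. In the knockdown 1 of 10 trophoblast markers (Krt7) and 1 of 6 neural markers (Pax6) rose by edgeR. DESeq2 called no trophoblast marker and 1 neural marker there. At an unadjusted p under 0.05, 6 trophoblast markers were higher and 1 lower there, with a median log2 change of 0.77. Of the neural markers 3 were higher and none lower, with a median of 0.51, beside -0.02 over all genes. In the libraries labelled knockout the median over 4 tested neural markers was -0.65, with none called by edgeR and 1 lower by DESeq2. Pax6 changed by -1.72 there (log2, edgeR adjusted p = 0.065) and differed between the experiments by -3.03 (adjusted p = 0.013). Mesoderm markers had medians of 0.59 (3 tested) in the libraries labelled knockout and 0.49 (7 tested) in the knockdown, with none called by edgeR. Unadjusted, 2 of the 7 were higher. Fibroblast markers summed to 35.8 to 80.8 CPM over all libraries, with Dcn, Lum and Postn at 0.261 CPM or less and Thy1 at 4.13 to 32.9, Pdgfrb at 4.08 to 19.6 and Col1a1 at 0.717 to 6.31 CPM. The stem cell markers summed to between 5664 and 11908 CPM, and none of the 12 was called by edgeR within an experiment (4 lower at an unadjusted p under 0.05 in the knockdown, 1 lower by DESeq2). Mitochondrial genes took 7.31% and 2.81% of counts in the libraries labelled knockout, against 0.732% and 0.776% in the Ssrp1 controls. The part of these shifts in the changes of imprinted genes was not tested.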

How the data were processed

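RNA-seq of 8 libraries was analysed, in 4 groups of 2 taken from the sample titles. The authors deposited raw counts of reads per Ensembl gene in a table for each experiment. Cutadapt, HISAT2, featureCounts and the build mm10 were used, per the submitters' processing notes; versions, annotation, strand mode and multi-mapping are not given there. All 92 spike-in rows were 0. Symbols and coordinates came from GENCODE on GRCm38 (mm10); 67 identifiers had no symbol.

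The 4 libraries of an experiment were fitted separately from the other 4 in edgeR 4.0.16 (R 4.3.3), with filterByExpr, TMM, quasi-likelihood F test, Benjamini-Hochberg over all genes tested, called at adjusted p under 0.05. SEs came from the fold change and F. Differences between experiments, the added contrast of control groups and the CPM scaling used a joint fit of 8 libraries. The edgeR step was also run on simulated counts with known changes, and its outcome is not given here. Changes were placed only in genes above a minimum mean level, so members as low as Igf2 are not covered. The alternatives were DESeq2 1.42.0, its size factors, no filter, no mitochondrial genes, the joint fit, a replicate block, a GC and length correction (mgcv 1.9.3) and leaving out each library.

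Per-library values were given for members called in any of the 3 tests, with a mean of at least 5 CPM in a group, or at a called member's locus; the rest are given by range. The members and lists were chosen with earlier results of these data known.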

Additional observations from a re-analysis of the deposited data

Results flagged for a closer look

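Grb10 is listed here because its change differed between the 2 experiments by a test of the difference itself: the change in the libraries labelled knockout minus the knockdown change was -2.63 on the log2 scale (SE 0.39, adjusted p = 0.014 in the joint edgeR fit). The separate changes were -2.34 in the libraries labelled Ssrp1 knockout and 0.24 after Usp7 knockdown. The Ssrp1 controls, at 103 and 104 CPM, stood above the other 6 libraries. No other member met this test.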

How the results depend on the processing

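Airn, Igf2, Nap1l5 and Peg12 had the fewest counts of the members, 7 to 134 over the 8 libraries, and with 2 libraries a group every call rests on 4 or 8 libraries. Grb10 in the Ssrp1 experiment, Ctcfl in the Usp7 experiment and Grb10, Phlda2, Meg3, Mirg and Mest between the controls kept direction and call in each alternative that was run. The other calls of members, and those of imprint regulators and neighbours, were lost in the settings named beside them, and the cause was not tested.

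Over all genes, the 585 calls of the Ssrp1 experiment were 1089 with DESeq2, 1497 with no filter, 254 with the GC and length correction, 1314 in the joint fit and 20 to 1884 with a library left out. The 476 calls of the Usp7 experiment were 100 with no filter, 734 with the correction, 78 in the joint fit and 42 to 3770 with a library left out. The 171 calls of the difference were 649 with DESeq2, 945 with no filter and 1 to 1109 with a library left out, and the 1361 calls between the controls were 2228, 2539 and 135 to 2815 under the same settings.

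Among members, 1 was higher in the Ssrp1 experiment, against 2 with no filter, 0 with the correction and 0 to 4 with a library left out. The 1 lower member became 2 with DESeq2, with its size factors and with the correction, 3 with no filter, 4 in the joint fit and 1 to 6 with a library left out. In the Usp7 experiment the 2 higher members became 4 with DESeq2, 0 with no filter, 0 in the joint fit and 0 to 12 with a library left out, and the 2 lower became 0, 0 and 0 to 4 with no filter, in the joint fit and with a library left out. For the difference, no higher member became 1 with no filter, and the 1 lower became 3 with DESeq2, 4 with no filter and 0 to 4 with a library left out. Between the controls, the 8 higher became 4 to 14 with a library left out, and the 2 lower became 4 with no filter, 4 on the control libraries alone and 2 to 4 with a library left out. Zdbf2 turned to -1.40 without replicate 1 labelled knockout and was 1.37 without replicate 2.

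The groups share only replicate numbers: same-numbered libraries deviated with a correlation of 0.177 in the Ssrp1 experiment and 0.123 in the Usp7 experiment, and 2 pairs cannot show a pairing. With the replicate block alone, and with the block plus the GC and length correction, calls over all genes were 988 and 1119 (Ssrp1), 1471 and 1777 (Usp7) and 525 and 499 (difference). Lower members with the block were 2 and 5 (Ssrp1) and 3 and 5 (difference), higher members in the Usp7 experiment 5 and 6, and with the block and correction 2 members were higher in the Ssrp1 and 4 lower in the Usp7 experiment.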
